A study of Rattus norvegicus with 250 samples.

Results

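Fanci, Unc45a, Pex11a and Wdr93 are 4 of the 32883 genes in the hippocampal count table of F2 rats. The F2 rats descend from a cross of the bHR line (bred High Responders, which explore a new enclosure much) with the bLR line (bred Low Responders, which explore it little). They are the rows that the study pairs with the Ensembl identifiers ENSRNOG00000016689, ENSRNOG00000012357, ENSRNOG00000015003 and ENSRNOG00000026514, and all lie on chromosome 1. The study selected them on measured values, in part from these same rats. These were expression tied to nearby genetic variants, a difference between the bHR and bLR lines, and at least a nominal relation to F2 behavior. The variants also had to share a location with loci for behavior in the larger F2 sample, with matching direction. The behavior slopes and family levels of the 4 genes are therefore given below as description. No p is printed for them, and nothing is read from how many of the 4 genes were called there. Of the 250 rats, 5 carried a failed quality control label and were left out, which left 122 males and 123 females from 12 families, with 13 to 27 rats in each. Every rat was an untreated F2 adult, killed at postnatal day 113 to 132, and was tested for LocoScore (beam breaks in an unfamiliar enclosure) and on an elevated plus maze (EPM). Pavlovian Conditioned Approach (PavCA) training had been given to 208 of them and not to 37. Each rat contributed 1 polyA library from punches of dorsal and ventral hippocampus, 123 from the left and 122 from the right side.

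Fanci belongs to the Fanconi anemia pathway, in which it is clamped with its partner Fancd2 around DNA at crosslinks that block replication. Unc45a is a chaperone that helps myosin motors fold, together with the heat shock protein Hsp90. Pex11a sits in the peroxisome membrane and takes part in the elongation and division of peroxisomes, the organelles that shorten very long fatty acids and handle hydrogen peroxide. Wdr93 is a little studied protein with WD repeats that annotation ties to respiratory electron transport.

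The median library held 21.61 mega counts (M), the smallest 17.92 M and the largest 31.49 M. CPM, the counts of a gene per 1 M counts of its library, is given below after TMM scaling, which sets library sizes by a trimmed mean of gene ratios. No gene lengths of the annotation behind the counts were used, so levels are compared between rats and not between genes. Slc17a7 (a vesicular glutamate transporter of excitatory neurons) had a median of 36517 counts per library and Gfap (the astrocyte intermediate filament) 18532, while 6 of the 40 cell type markers looked for could be paired with an identifier. In bulk tissue, fewer cells of a type and less RNA per cell cannot be told apart.

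Along chromosome 1, in the direction of the forward strand, Fanci comes first, then Pex11a and Wdr93 as direct neighbors, then Unc45a. In the RefSeq promoter windows of build GRCr8, all 4 genes had an entry. Pex11a lies on the reverse strand and Wdr93 on the forward strand, head to head, with 83 bases between their annotated starts, and 10.2% of the 33469 promoter windows overlap a window on the opposite strand. These bases are shown because both genes are read outward from them, and the 100 bases before Fanci and before Unc45a stand beside them for comparison. Capitals mark matches on either strand to 4 motifs, which do not overlap each other here. They are the GC box, spelled GGGCGG, the binding core of ETS factors, spelled GGAAGT, the binding site of the factor NF-Y, spelled CCAAT, and the motif bound by the TATA-binding protein, spelled TATAAA.
Pex11a and Wdr93, between their starts, chr1:143096492-143096574, forward strand: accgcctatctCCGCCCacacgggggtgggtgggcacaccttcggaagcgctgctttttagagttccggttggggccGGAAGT
Fanci, upstream, chr1:142736553-142736652, forward strand: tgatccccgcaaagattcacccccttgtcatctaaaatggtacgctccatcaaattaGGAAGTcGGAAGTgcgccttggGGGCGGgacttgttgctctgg
Unc45a, upstream, chr1:143705901-143706000, reverse strand: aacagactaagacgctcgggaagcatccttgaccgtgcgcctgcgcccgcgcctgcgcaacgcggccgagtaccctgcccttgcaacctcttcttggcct

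The Pex11a and Wdr93 stretch held 1 GC box and 1 ETS core, the Fanci stretch held 1 GC box and 2 ETS cores, and the Unc45a stretch held none of these letters. Over all genes, the 100 bases before the start held a GC box in 21.6% and an ETS core in 9.89%. In the whole windows of 300 bases, a GC box was found for all 4 genes (33.1% of all windows), an ETS core for Fanci, Pex11a and Wdr93 (22.6%), and the NF-Y (37.5%) or TATA-binding protein motif (14.2%) for none of the 4. The windows of Pex11a and Wdr93 overlap, so the matches between their starts are counted for both genes. These matches are a description of the letters only.

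The 4 genes differed in how widely they varied among rats. Unc45a ranged from 32.4 to 71.6 CPM (median 49.9, n = 245), a 2.21-fold span with a coefficient of variation of 16.3%. Pex11a ranged from 4.01 to 25.5 CPM (median 12.6), a 6.36-fold span, and Fanci from 1.12 to 8.12 CPM (median 3.71), a 7.25-fold span. Wdr93 ranged from 0.0976 to 2.56 CPM (median 0.799), and its coefficient of variation was 53.3%. Wdr93 also had the fewest reads, from 2 to 70 raw counts per library with a median of 17, and the part of counting error in its span was not tested. The median counts of the others were 80 (Fanci), 278 (Pex11a) and 1110 (Unc45a).

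Part of this spread followed technical measures of the RNA, and it did so in opposite directions for Unc45a and Pex11a. Over the 245 rats, log2 CPM of Unc45a correlated at 0.824 with the percentage of intergenic reads and at -0.839 with that of ribosomal reads. For Pex11a the same values were -0.54 and 0.436, for Wdr93 -0.309 and 0.184, and for Fanci 0.0971 and -0.154. Sex, both percentages, dissector, PavCA experience and sequencing batch together took up 80.0% of the variance of Unc45a, 32.9% for Pex11a, 11.0% for Wdr93 and 8.42% for Fanci. After these covariates were removed, the standard deviation of log2 CPM was 0.107 for Unc45a, 0.44 for Pex11a, 0.55 for Fanci and 0.79 for Wdr93. The largest step between neighboring rats within the central 90% was 0.0102, 0.0404, 0.0415 and 0.128 in the same order. Whether the rats form groups that overlap was not tested. The Pex11a residuals were uneven, with 41 rats under -0.5, 37 between -0.5 and -0.25, 27 between -0.25 and 0, 74 between 0 and 0.25, 35 between 0.25 and 0.5 and 31 above. In the same intervals Wdr93 had 50, 33, 31, 25, 38 and 68 rats, and Fanci had 52, 23, 45, 38, 39 and 48.

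The family medians of each gene were spread out, with wide overlap of the rats. For Fanci, family 12 was lowest, from 1.48 to 3.95 CPM with a median of 2.22 (n = 13), and family 7 was highest, from 1.58 to 7.71 CPM with a median of 4.77 (n = 21). The Fanci medians of these families differed 2.15-fold, yet 8 of the 21 rats of family 7 lay below the highest rat of family 12. Wdr93 had its lowest median in family 8 (0.578 CPM, range 0.244 to 1.16, n = 20) and its highest in family 7 (1.15 CPM, range 0.271 to 1.58). Pex11a ran from a median of 10.2 CPM in family 8 (range 5.96 to 18.4) to 16.9 CPM in family 10 (range 5.95 to 24.2, n = 15), so that the full range of family 8 lay inside that of family 10. Unc45a ran from 40.0 CPM in family 12 (range 33.8 to 47.2) to 55.6 CPM in family 6 (range 33.7 to 63.5, n = 19), and all 13 rats of family 12 exceeded the lowest rat of family 6. These CPM values still hold the technical part given above, which was largest for Unc45a. The median intergenic percentage was 11.7% in family 12 and 14.2% in family 6.

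**Figure D1:**
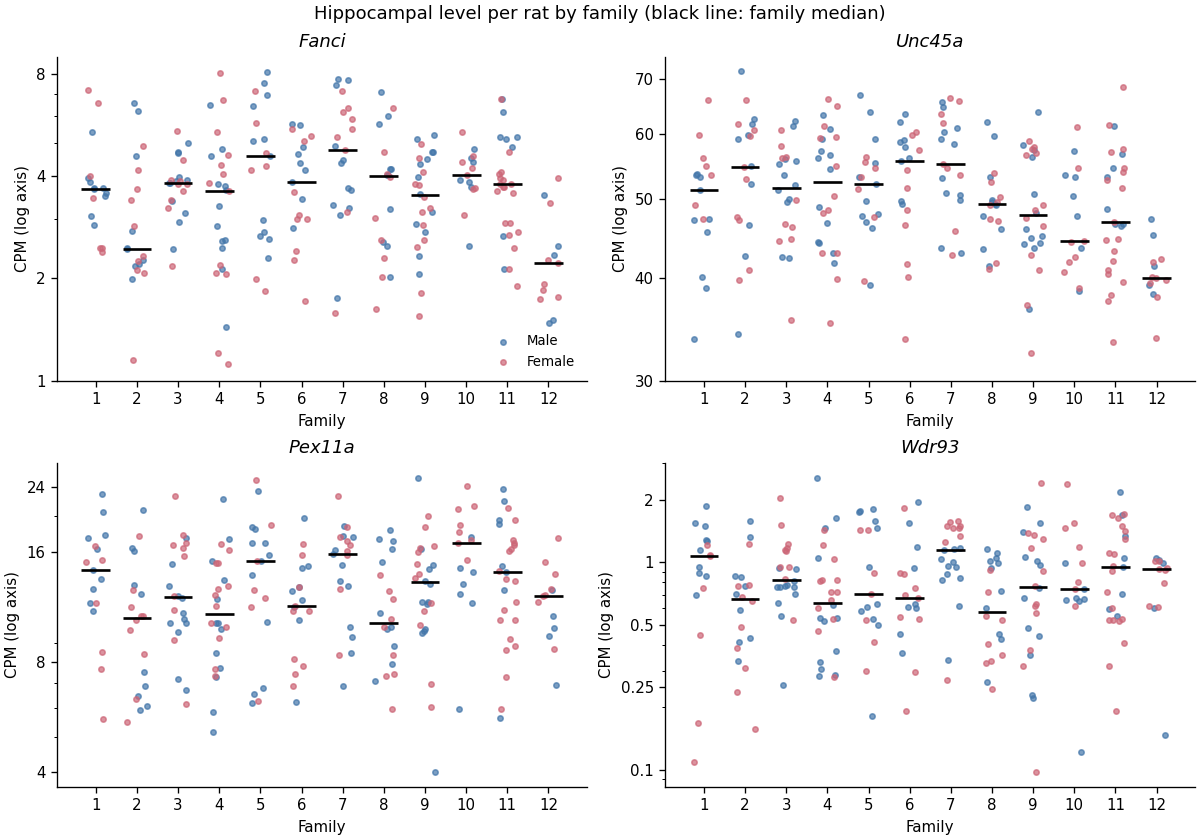
CPM of each gene (log axis) by family for the 245 rats, 1 point per rat colored by sex, with the family median as a black line. The points of all families overlap, and the Fanci medians run from 2.22 CPM in family 12 to 4.77 CPM in family 7.

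With the covariates removed, family 12 was the lowest of the 12 families for Fanci (mean residual -0.475 ± 0.123 SE on the log2 scale), Pex11a (-0.303 ± 0.066) and Unc45a (-0.052 ± 0.024). This family also had the lowest median intergenic percentage (11.7%), which the model takes into account. Family 7 was the highest for Pex11a (0.206 ± 0.087) and Wdr93 (0.412 ± 0.149) and next to the highest for Unc45a (0.051 ± 0.024). Family 6, which had the highest Unc45a median in CPM, had a mean Unc45a residual of 0.015 ± 0.024. Families accounted for 11.0% of the residual variance of Fanci, 9.56% for Pex11a, 6.52% for Unc45a and 6.25% for Wdr93, beside a median of 8.15% over all genes tested. With family in the limma-voom model, 2 of the 4 genes (Fanci and Pex11a) passed a false discovery rate (FDR) of 0.10, beside 56.3% of all 19448 genes tested. Nothing is read from this count, since ties of expression to genotype in these rats were part of the choice. The larger part of the residual variance of each gene lay between rats of the same family.

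From rat to rat, the 4 genes covaried positively once the covariates were removed. On log2 CPM with covariates removed, the r of the 6 pairs ran from 0.462 to 0.792 over 245 rats. Fanci and Pex11a had the highest correlation (Pearson r = 0.792, Spearman rho = 0.808), and the head-to-head pair Pex11a and Wdr93 came next (r = 0.711, rho = 0.719). Unc45a followed Fanci (r = 0.639, rho = 0.653) and Pex11a (r = 0.621, rho = 0.622) closely, although it lies farthest from them in gene order. The lowest values were those of Wdr93, the gene with the fewest reads, with Fanci (r = 0.545, rho = 0.561) and Unc45a (r = 0.462, rho = 0.463). In a two-sided permutation test of the 6 pairs, every Benjamini-Hochberg adjusted p was 1e-05, the smallest that 100000 resamples can give. The genes were chosen for ties to variants of the same stretch of chromosome in these rats, so this p is not independent evidence of shared control.

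The covariation was present within families, sexes and batches. With family means removed and rats permuted within family, r was 0.784 for Fanci and Pex11a, 0.701 for Pex11a and Wdr93, and 0.462 for Unc45a and Wdr93. Each permutation adjusted p was again 1e-05, and the limit stated above for this p holds here too. Fanci and Pex11a had r = 0.835 in the 122 males and 0.757 in the 123 females, and 0.732, 0.837 and 0.851 in the 3 sequencing batches (n = 95, 94 and 56). Pex11a and Wdr93 had r = 0.714, 0.726 and 0.706 in the same batches. Leaving out the 2 rats farthest from the median of the first gene of each pair gave r from 0.462 to 0.802. With LocoScore removed as well, an alternative chosen after seeing the data, r ran from 0.446 to 0.784.

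Removal of the covariates changed the sign for 2 of the 3 pairs with Unc45a. On plain log2 CPM, Unc45a and Pex11a had r = -0.213 (permutation adjusted p = 0.00106), and Unc45a and Wdr93 had r = -0.0264 (permutation adjusted p = 0.679), while Fanci and Unc45a remained positive at 0.421 (permutation adjusted p = 1.5e-05). The opposite correlations of Unc45a and Pex11a with the intergenic percentage, given above, stand beside this change. Pairs without Unc45a were positive on both scales, at 0.598 for Fanci and Pex11a, 0.72 for Pex11a and Wdr93 and 0.476 for Fanci and Wdr93 on plain log2 CPM.

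**Figure D2:**
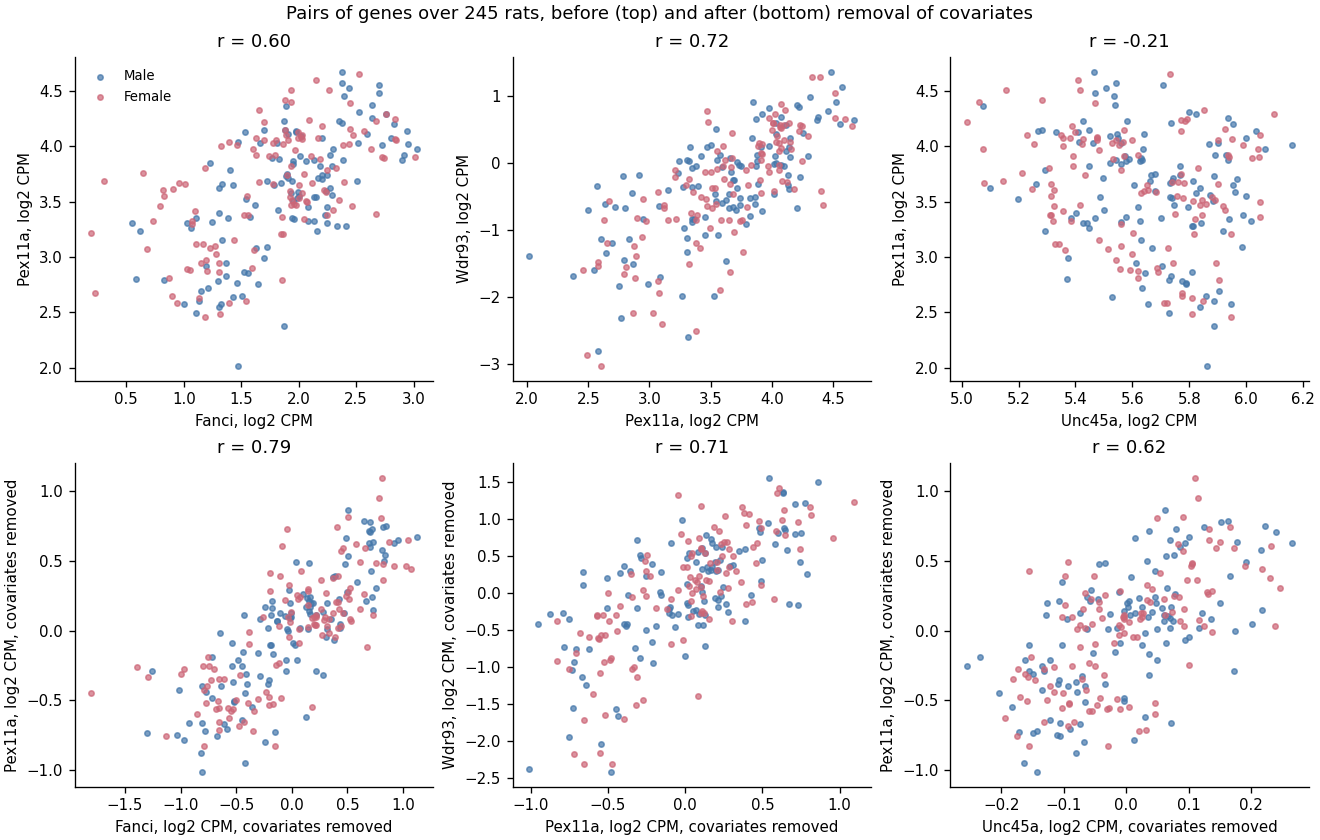
Log2 CPM of 3 pairs of genes over the 245 rats, before (top row) and after (bottom row) removal of covariates, 1 point per rat colored by sex, with Pearson r above each panel. Fanci and Pex11a, and Pex11a and Wdr93, are positive in both rows, while Unc45a and Pex11a turn from -0.21 to 0.62.

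Among 14767 genes with a median count of at least 10, the closest matches to each gene were mostly each other and their chromosome 1 neighbors. Likeness was the absolute r over the 245 rats with covariates removed, and 99% of genes had an absolute r below 0.229 with Fanci, 0.304 with Unc45a, 0.217 with Pex11a and 0.267 with Wdr93. For Fanci the 5 closest were Pex11a, Unc45a, AABR07004404.1 (r = 0.553, a gene named only by its clone), Wdr93 and Mfge8 (r = -0.515). For Pex11a they were Fanci, Wdr93, Hddc3 (r = 0.707), Mfge8 (r = -0.651) and AABR07004404.1 (r = 0.644). Wdr93 shared these, with Hddc3 at 0.61 and Mfge8 at -0.585. The closest to Unc45a were the other members, AABR07004404.1 (r = 0.449) and ENSRNOG00000009298 (r = 0.432), an identifier not paired with a symbol here. Mfge8 encodes a secreted protein that marks dying cells for engulfment, and it was the only one of these that moved opposite to the 4 genes. The study also names Mfge8 as a candidate, with higher expression in bHR-like animals. Its opposite sign is therefore not independent of how the study chose genes. Hddc3 encodes an enzyme related to bacterial hydrolases of alarmone nucleotides, and it follows Unc45a in the gene order that the study's supplement lists.

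Not every neighbor shared the pattern. The study's supplement lists 27 other genes with enough counts between Aen and Iqgap1. Of these, 10 had an absolute r with Pex11a past its 99th percentile over all genes (7 positive and 3 negative). For Fanci there were 8, for Wdr93 8 and for Unc45a 4. By definition about 1% of all genes lie past that value. The ends of the span from Aen to Iqgap1 were a choice, and these counts depend on it. Aen, at its start, was itself past the 99th percentile with Pex11a (r = 0.282). Besides those named, Arpin (an inhibitor of the actin-nucleating Arp2/3 complex) had r = 0.512 with Pex11a and Rlbp1 (a retinaldehyde-binding protein of glia) 0.365, while Vps33b (a vesicle tethering protein) had -0.37. Others in between were near 0, such as Ngrn (r = -0.00284) and Kif7 (r = 0.0297, a kinesin of hedgehog signaling). Kif7 comes just before Pex11a in that list, which need not hold every gene of the stretch. These correlations come from the same libraries and are given as description.

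**Figure D3:**
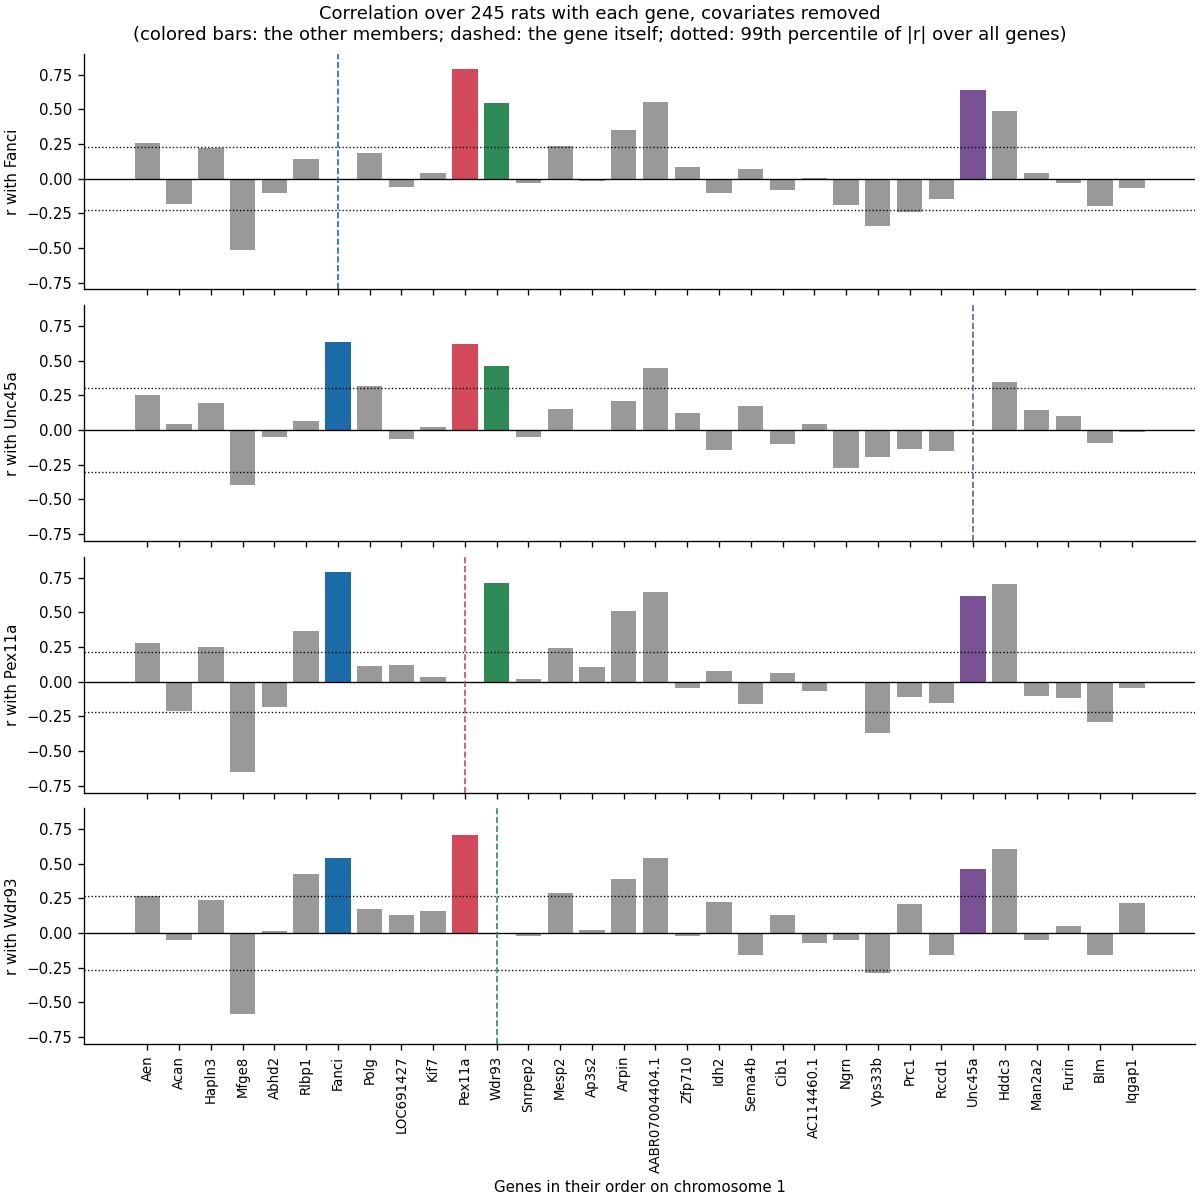
Pearson r over the 245 rats, covariates removed, with Fanci, Unc45a, Pex11a and Wdr93 (1 panel each). Bars are the genes that the study's supplement lists on chromosome 1 from Aen to Iqgap1, in their order. The other members are colored, and dotted lines mark the 99th percentile of absolute r over all genes. High positive bars (Pex11a with Fanci, 0.792, and with Hddc3, 0.707) alternate with bars near 0, and Mfge8 is negative in all 4 panels.

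Few of the genes that work with the 4 members could be paired with identifiers, and these few did not show this likeness. Where they lie in the genome was not part of the comparison. Of 28 Fanconi anemia and crosslink repair genes, 5 were paired, and their r with Fanci ran from -0.199 (Blm, a helicase that itself lies in this stretch of chromosome 1) to -0.0102 (Palb2). Of 32 genes of peroxisome biogenesis and fatty acid oxidation, 4 were paired, and their r with Pex11a ran from 0.0293 (Amacr) to 0.0414 (Pex7). Of 15 myosin and Hsp90 chaperone genes, 3 were paired, with r between -0.0634 (Myh14) and 0.0217 (Fkbp4) with Unc45a. Of 37 complex I genes, 7 were paired, with r between -0.0499 (Ndufb8) and 0.0729 (Ndufs4) with Wdr93. All of these genes lay inside the central 99% of absolute r over all genes for their member. None of them passed the LocoScore test. For sex, 2 of the 3 chaperone genes passed and 0 in the other lists, beside 9.08% of all genes tested. They were Fkbp4 (0.0857 log2 higher in females, limma-voom adjusted p = 2.07e-05) and Stip1 (0.0704, adjusted p = 0.0204), both cochaperones of Hsp90. Some symbol pairs came from the study's supplementary results for sex. Pairing may thus favor genes that differ by sex, so this count is description only. For training, 1 of 5, 2 of 3, 0 of 4 and 1 of 7 passed in the Fanconi anemia, chaperone, peroxisome and complex I lists, beside 9.19% of all genes. For family 4, 2, 4 and 7 did, beside the 56.3% given above. That share includes genes with few reads. Among genes with at least 1 CPM in 25% of rats, 10462 of 14058 were called for family. The pairs come from the study's supplementary results, so these counts too are description only.

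Among cell type markers, the largest r with Wdr93 was 0.274 for Tmem212 (a gene of ciliated ependymal cells), followed by 0.227 for Folr1 (a folate receptor of choroid plexus). The same markers had r of -0.00467 and -0.0567 with Pex11a. Slc17a7 had r = 0.356 with Unc45a and -0.0558 with Pex11a. Tmem212 with Wdr93 and Slc17a7 with Unc45a thus lay past the 99th percentile of absolute r over all genes (0.267 and 0.304). With 6 of 40 markers paired, the part of cell makeup in the covariation of the 4 genes was not tested further.

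The slopes of all 4 genes on exploratory locomotion were negative. Per 100 beam breaks of LocoScore, the slope of log2 expression was -0.0604 ± 0.0177 (SE) for Wdr93, -0.0362 ± 0.0122 for Fanci, -0.0278 ± 0.00941 for Pex11a and -0.00537 ± 0.00238 for Unc45a (n = 245). LocoScore itself ran from 40 to 1461 with a median of 475. The study chose the genes partly on such relations, so no p is given. By limma-voom 0 of the 4 passed FDR 0.10, where 0.0103% of all genes tested (2 of 19448) did, 1018 had an unadjusted p under 0.05 and edgeR called 1. With the covariates removed from both, r with LocoScore was -0.221 for Wdr93, -0.191 for Pex11a, -0.18 for Fanci and -0.143 for Unc45a. The slope was negative in 11 of 12 families for Wdr93, 9 for Fanci, 8 for Pex11a and 7 for Unc45a.

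Both parts of LocoScore gave the same direction, which is not independent of the total, since they add up to it. Per 100 lateral beam breaks the slope was -0.159 ± 0.0463 for Wdr93, -0.0873 ± 0.0321 for Fanci, -0.0709 ± 0.0245 for Pex11a and -0.0107 ± 0.00624 for Unc45a. Per 100 rearing beam breaks it was -0.0902 ± 0.0276, -0.0573 ± 0.019, -0.0422 ± 0.0147 and -0.0092 ± 0.00369 in the same order. Of all genes, 0.0154% were called for lateral and 0.0103% for rearing activity, and 0 of the 4 were among them.

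On the maze the direction was the same for distance and opposite for immobility. The slope of Wdr93 was the steepest of the 4 genes for both. Per standard deviation of the behavior, the slopes for distance were -0.192 ± 0.0543 (Wdr93), -0.0796 ± 0.0384 (Fanci), -0.0573 ± 0.0293 (Pex11a) and -0.019 ± 0.00747 (Unc45a). For time immobile they were 0.213 ± 0.058, 0.0347 ± 0.0419, 0.0454 ± 0.0325 and 0.0144 ± 0.00825, so that the value of Fanci was smaller than its SE. Open-arm time as a percentage gave slopes from -0.0556 ± 0.0539 (Wdr93) to -0.00108 ± 0.00733 (Unc45a). By limma-voom 0 genes of 19448 were called for any of these 3 (percent called 0), with 728, 830 and 759 at an unadjusted p under 0.05, and edgeR called 7, 1 and 3, none of them a member.

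Slopes on Pavlovian approach were negative as well. The PavCA Index, positive in rats that approach the lever (sign-trackers) and negative in those that approach the food cup (goal-trackers), had a slope per index unit of -0.167 ± 0.0755 for Fanci, -0.136 ± 0.0592 for Pex11a, -0.182 ± 0.11 for Wdr93 and -0.0283 ± 0.0158 for Unc45a (n = 205). Of all genes, 0.00514% were called and 0 of the 4 were. By class, Fanci had a median of 3.28 CPM in the 80 sign-trackers (1.12 to 8.05), 3.95 in the 87 intermediate rats (1.15 to 7.71) and 3.75 in the 38 goal-trackers (1.58 to 8.12). Pex11a had medians of 11.8, 12.8 and 12.7 CPM in the same classes. The classes overlapped over nearly their whole ranges, and the intermediate class had the highest median for both genes.

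**Figure D4:**
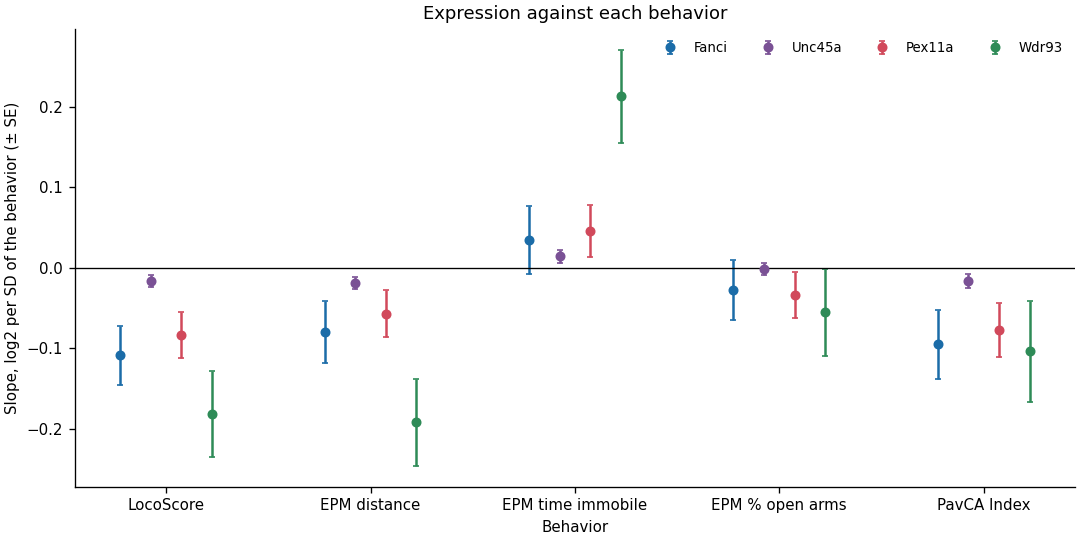
Slope of log2 expression per standard deviation of each of 5 behaviors for the 4 genes (points), with bars of 1 SE. Slopes are below 0 for LocoScore, distance, open arms and PavCA Index and above 0 for time immobile, largest for Wdr93 (-0.182 for LocoScore, 0.213 for time immobile).

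Comparisons that played no part in choosing the genes gave no call for any of the 4. The medians of females and males were 12.6 and 12.6 CPM for Pex11a (ranges 5.48 to 25.1 and 4.01 to 25.5), 3.61 and 3.83 for Fanci (1.12 to 8.05 and 1.44 to 8.12), 0.799 and 0.796 for Wdr93 (0.0976 to 2.42 and 0.122 to 2.56), and 49.1 and 50.8 for Unc45a (32.4 to 68.5 and 33.7 to 71.6). By limma-voom 9.08% of all genes passed FDR 0.10 for sex and 0 of the 4 did. The smallest adjusted p was that of Unc45a, with a difference, female minus male, of -0.0309 log2 (95% interval -0.059 to -0.00268, adjusted p = 0.208). It was the only one of the 4 with an unadjusted p under 0.05, and it was -0.0139, -0.0358 and -0.0237 in the 3 batches and -0.00309 without the intergenic percentage. For Wdr93 the interval was wide, from -0.186 to 0.22 log2. Of the 6 paired cell type markers, 4 passed the test for sex (Slc17a7, Rbfox3, Gfap and Aqp4), all lower in females. Slc17a7 was at -0.0836 log2. The pairs came in part from the study's supplementary results for sex, so 4 of 6 is description only. The part of these markers in the Unc45a value was not tested. No date of death held both sexes, so sex and date cannot be told apart.

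Side and training also gave no call. The right side minus the left was 0.0814 log2 for Pex11a (95% interval -0.0246 to 0.187) and 0.0833 for Fanci (-0.0544 to 0.221), and all 4 adjusted p lay between 0.904 and 0.976. No gene of 19448 was called for side (percent called 0), with 1048 at an unadjusted p under 0.05, none of them a member, and 6 calls by edgeR. Trained minus untrained rats differed by 0.178 log2 for Pex11a (95% interval -0.00511 to 0.361, adjusted p = 0.28), where 9.19% of all genes were called. On the 3 dates of death that held both kinds of rats, this value was 0.33 ± 0.122 (SE, n = 123). In the 3 batches it was -0.088 ± 0.21, 0.596 ± 0.297 and 0.221 ± 0.138. These batches held 4, 3 and 30 untrained rats, so the values of batches 1 and 2 rest on few untrained rats. With dissection day in the model the Pex11a value was 0.0771 ± 0.113. Fanci gave 0.0728 (-0.176 to 0.322) over all rats, 0.336 ± 0.174 on the shared dates and -0.0409 ± 0.153 with dissection day. Wdr93 gave 0.17 (-0.169 to 0.509) and Unc45a -0.0157 (-0.0645 to 0.0332).

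**Figure D5:**
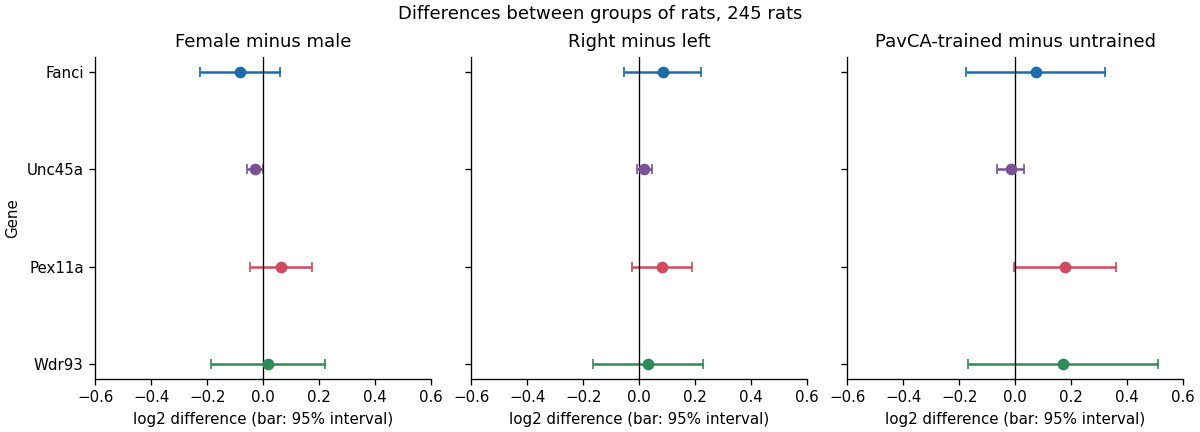
Log2 difference with its 95% interval for each gene between females and males, right and left hippocampus, and PavCA-trained and untrained rats (245 rats). All intervals include 0 except that of Unc45a for sex (-0.059 to -0.00268), whose adjusted p was 0.208.

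The LocoScore slopes did not differ detectably between the sexes. The female slope minus the male slope was 0.0389 per 100 beam breaks for Wdr93 (95% interval -0.031 to 0.109, limma-voom adjusted p = 0.574), 0.005 for Fanci (-0.0431 to 0.053), 0.0022 for Pex11a (-0.035 to 0.0394) and 0.00151 for Unc45a (-0.00789 to 0.0109), where 0.329% of all genes were called. In single sexes, Wdr93 had -0.0879 ± 0.0271 in males and -0.0462 ± 0.0239 in females. Fecal boli on the maze, recorded in 242 rats and above 0 in 58, gave slopes from 0.00144 ± 0.0047 (Unc45a) to 0.0158 ± 0.0347 (Wdr93) log2 per bolus, with adjusted p from 0.986 to 0.988. No gene was called for boli by limma-voom (percent called 0), with 801 at an unadjusted p under 0.05, none a member, and 3 calls by edgeR.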

How the data were processed

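Hippocampal RNA-Seq counts of 250 F2 rats were examined, as 1 library per rat. The deposited counts are whole reads per gene that the authors made by aligning reads to Rnor6 with STAR 2.7.3a and counting unique hits per Ensembl gene, by strand, with Subread 2.0.0, and they were deposited without normalization. The 5 libraries labelled as failed quality control were left out. Columns were matched to rats by title.

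The covariates and the filter rule followed the study's methods, though the number of genes kept here is larger than the study's own. The model was limma-voom (limma 3.58.1, R 4.3.3) on TMM-scaled counts (edgeR 4.0.16) of 19448 genes (1 read or more in 25% of rats), with batch, PavCA experience, dissector, sex and the ribosomal and intergenic percentages as covariates, and Benjamini-Hochberg adjustment over all genes at FDR 0.10. The intergenic percentage was recomputed from the other labelled fractions, and the 3 batches were read from breaks in the library numbers, since no label used here states them. Behavior, side and family were added in turn. The PavCA Index model had no term for PavCA experience, and the distance model lacked 1 EPM distance above the range of the others. Log2 CPM values used a pseudocount of 0.5 counts. Correlations were tested by 100000 permutations (Python 3.11.15, scipy 1.17.1). The models were tested on simulated data first.

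The supplement of the study gave only symbols, identifiers and gene order (1985 pairs), and promoter windows come from RefSeq (GRCr8), which is not the build of the counts. Named are the 4 genes, the 5 genes with the largest absolute r with each, at most 8 neighbors with the largest or smallest r, and up to 4 examples per pathway list. The members and lists were chosen with earlier results of these data known. Rats of a family are related, so p-values over rats assume more independence than there is. Alternatives were DESeq2 size factors and Wald test (DESeq2 1.42.0), other filters, all 250 libraries, edgeR, limma-trend, other covariates, rank-normalized behavior, and single sexes or batches.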

Additional observations from a re-analysis of the deposited data

How the results depend on the processing

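Under 11 alternatives with covariates removed, the correlation of every pair stayed positive and past the threshold, from 0.44 (Unc45a and Wdr93, all 250 libraries) to 0.851 (Fanci and Pex11a, batch 3). Without removal, Unc45a and Pex11a gave -0.213 and Unc45a and Wdr93 -0.0264, beside the opposite technical correlations given above. LocoScore slopes of the 4 genes were negative under all 18 alternatives. These fits reuse the rats in which the genes were chosen partly on behavior, so the shared sign is description only. Other behavior slopes changed sign in some fits, most often Unc45a with open arms (8 of 17). The count of members called for family, 2 in the main model, was 4 with all 250 libraries (11251 of 19474 genes called) and with at least 1 CPM in 25% of rats (10462 of 14058), 3 in males (10416 of 19436), 1 in females (2071 of 19496), and 0, 1 and 1 in batches 1, 2 and 3 (2882 of 19346, 5608 of 19439 and 204 of 19723). It was 2 or 3 under the other alternatives. The cause was not tested.

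No alternative gave a call for sex (lowest adjusted p 0.171 of 14 alternatives), side (0.766 of 15), training (0.121 of 15), boli (0.746 of 15) or sex by LocoScore (0.526 of 13). Among these uncalled values the sign turned as follows, and the cause was not tested. For sex, Fanci was 0.0649 in batch 2, Pex11a -0.0788 in batch 3 and -0.008 without the intergenic percentage, and Wdr93 -0.208, -0.0116 and -0.0734 in batch 3, with sex as the only covariate and without the intergenic percentage. For side, Unc45a was -0.00405 with sex as the only covariate, Pex11a -0.0496 in females (0.223 in males, the difference not tested), and Wdr93 -0.113 in females and -0.0217 in batch 2. For training, Fanci was -0.0409 with dissection day added and -0.0447 in batch 1. Unc45a was 0.0514 on shared dates of death, 0.004 in females and 0.0218 and 0.0771 in batches 1 and 2. Pex11a was -0.088 and Wdr93 -0.681 in batch 1. Batches 1 and 2 held 4 and 3 untrained rats. For boli, females gave -0.00244 (Fanci), -0.0208 (Unc45a) and -0.0265 (Pex11a), males -0.000411 (Wdr93), batch 1 -0.012 (Pex11a) and -0.00883 (Wdr93), and batch 2 -0.0105 (Fanci), -0.00126 (Unc45a), -0.0167 (Pex11a) and -0.0269 (Wdr93). Pex11a was also -0.00311 with family added, -0.0135 with sex as the only covariate and -0.00152 without the intergenic percentage. For sex by LocoScore, all 250 libraries gave -0.0041 (Fanci), -0.000498 (Unc45a) and -0.00634 (Pex11a), and batch 2 -0.0129, -0.000114 and -0.0154. Pex11a was also -0.000868 with edgeR, -0.00176 with family added, -0.000238 with limma-trend and -0.00708 with sex as the only covariate.

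Wdr93, with a median of 17 counts, is the least precise of the 4 genes. No paired analysis was possible because the labels give no replicate numbers that pair rats between groups. Fits with family or dissection day as a term are among the alternatives above.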
